A study of Mus musculus with 20 samples.

Results

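The cytokine receptors of the common gamma chain and gp130 families were followed in Treg cells of the mouse. Treg (regulatory T) cells are CD4 T cells that hold other immune cells in check and whose identity rests on the transcription factor Foxp3. The 10 genes Il2ra, Il2rb, Il2rg, Il15ra, Il4ra, Il7r, Il9r, Il21r, Il6ra and Il6st were taken by gene symbol from 21928 symbols on the array. Each had 1 probe set, and the 10 were among the 12462 genes that passed the filter on dim probe sets. Values are log2 intensities on 20 Affymetrix arrays in 7 groups. GGTI_18h (2 arrays), FTI_18h (3) and DMSO_18h (3) were stimulated for 18 h, and GGTI_48h, FTI_48h and DMSO_48h (3 each) for 48 h. The stimulus was antibody against CD3 and CD28 (10 ug/ml) together with interleukin-2 (IL-2, 200 U/ml). DMSO_0h (3 arrays) has no stimulation time. GGTI and FTI are prenylation inhibitors given 2 h ahead of the stimulus, and DMSO is the vehicle. Neither the identity nor the dose of the inhibitors is stated in the labels. Prenylation attaches a farnesyl or a geranylgeranyl lipid to proteins such as small GTPases. Every mouse was C57BL/6J and carried the Foxp3YFP-Cre allele, so that YFP marked cells with Foxp3 expression, and no group lacked it. The cells were sorted from spleen and pLN as YFP+ CD4+ with low CD44, in a gate for resting Treg cells, and are labelled cTreg. No group was cultured without stimulation, so culture time, the antibodies and IL-2 cannot be told apart. The labels give no age and do not say that replicates are different mice, so the p-values cover the scatter among these arrays, possibly technical.

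Receptors of the common gamma chain family share the chain encoded by Il2rg. Il2rb is the signalling chain of the IL-2 and IL-15 receptors. Il2ra (CD25) gives the IL-2 receptor its high affinity, and Il15ra binds IL-15 with high affinity. Il4ra, Il7r (CD127), Il9r and Il21r encode chains of the receptors for IL-4, IL-7, IL-9 and IL-21. The gp130 family shares the chain encoded by Il6st, and Il6ra binds IL-6. Both families signal through JAK kinases and STAT factors. Treg cells need IL-2 for their maintenance, and high CD25 with low CD127 is widely used to recognise them, while CD127 marks resting and memory T cells.

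All 7 Treg markers checked lay above the median of the negative-control probe sets in every group, and Foxp3 group means ran between 10.67 and 11.20. Il2ra itself did not: its DMSO_0h mean of 5.04 lay below the negative-control median of 5.64, although the cells are labelled Treg. With GGTI at 48 h, 4 of the 7 Treg markers were higher and 1 lower than in DMSO_48h, where 40.3% of all genes passed limma's test. Among them were Foxp3 (log2 0.22), Ikzf2 (0.54) and Ctla4 (-0.51). With FTI at 48 h 2 were higher and 0 lower, where 7.66% of all genes passed. Of 7 myeloid markers, Cd68 and Cst3 were above the negative controls in every group and Cd14, Csf1r, Fcer1g, Itgax and Lyz2 in none. Of 7 CD8 T and NK cell markers, Cd8a and Cd8b1 were above them in every group, Eomes and Prf1 in some, and Klrb1c, Klrd1 and Ncr1 in none. Together these 7 markers had a summed level of 9.21 to 9.42 in GGTI_48h, 8.75 to 9.06 in FTI_48h and 9.42 to 9.60 in DMSO_48h. At 48 h Eomes and Prf1 fell with GGTI (log2 -2.67 and -0.73) and with FTI, where neither was above the negative controls, and Cd8b1 rose with GGTI (0.78) and FTI (0.38). The summed level of 6 B cell markers was 8.58 to 9.22 in the stimulated groups and 9.28 to 9.75 in DMSO_0h. At 48 h the summed level of 4 red cell markers was 8.60 to 8.77 in GGTI_48h, against 7.59 to 7.81 in DMSO_48h, with 1 of 3 tested markers higher. That of 7 myeloid markers was 10.89 to 10.95 in GGTI_48h, against 10.57 to 10.68 in DMSO_48h, with 1 of 2 tested higher (Cst3, log2 0.29). Their part in the results was not tested. On the stimulated arrays the negative controls had medians of 4.94 to 5.32, against 5.58 to 5.67 in DMSO_0h. Arrays of 1 group correlated at r = 0.9785 to 0.9943 across probe sets, which are not independent replicates.

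The promoters of Il7r, Il6ra and Il21r are shown because these genes had the largest changes with GGTI at 48 h described below, a choice made with their values known. RefSeq windows (GRCm38.p6) of 250 bases before the annotated start were found for 9 of the 10 genes. Each was searched on both strands for TTCNNNGAA (the STAT site), TGTTTAC (FOXO), TGANTCA (AP-1), CACCC (KLF) and the NF-kappaB motif. Capitals mark matches to any but the KLF letters, which occur in 52.0% of all 32851 windows and can overlap other motifs.
Il7r, chr15:9529877-9530126, minus strand: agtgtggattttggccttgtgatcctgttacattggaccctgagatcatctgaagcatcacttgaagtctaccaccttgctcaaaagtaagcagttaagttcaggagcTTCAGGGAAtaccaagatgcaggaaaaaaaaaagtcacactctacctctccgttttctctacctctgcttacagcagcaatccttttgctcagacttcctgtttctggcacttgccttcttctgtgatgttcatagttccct
Il6ra, chr3:89913197-89913446, minus strand: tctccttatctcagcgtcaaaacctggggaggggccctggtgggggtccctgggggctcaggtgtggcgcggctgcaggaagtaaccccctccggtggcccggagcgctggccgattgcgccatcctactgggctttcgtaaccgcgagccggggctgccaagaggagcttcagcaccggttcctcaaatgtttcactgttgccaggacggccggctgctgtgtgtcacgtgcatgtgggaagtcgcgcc
Il21r, chr7:125603179-125603428, plus strand: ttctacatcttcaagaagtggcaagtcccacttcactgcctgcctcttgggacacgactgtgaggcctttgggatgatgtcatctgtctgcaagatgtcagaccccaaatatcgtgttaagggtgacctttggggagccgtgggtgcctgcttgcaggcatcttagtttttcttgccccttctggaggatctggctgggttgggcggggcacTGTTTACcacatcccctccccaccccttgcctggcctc
The Il7r window holds 1 match to the STAT letters, TTCAGGGAA, which starts 142 bases before the gene's start. Such a match occurs in 7.0% of all windows. The Il21r window holds 1 match to the FOXO letters, TGTTTAC, which starts 38 bases before the start, and 3.2% of all windows hold one. The Il6ra window has none of these letters. Among the other members, 1 of the Il15ra windows matched the AP-1 letters, which 6.7% of windows hold, and no member window matched the NF-kappaB letters, which 0.4% hold. A match describes the letters only.

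**Figure D1:**
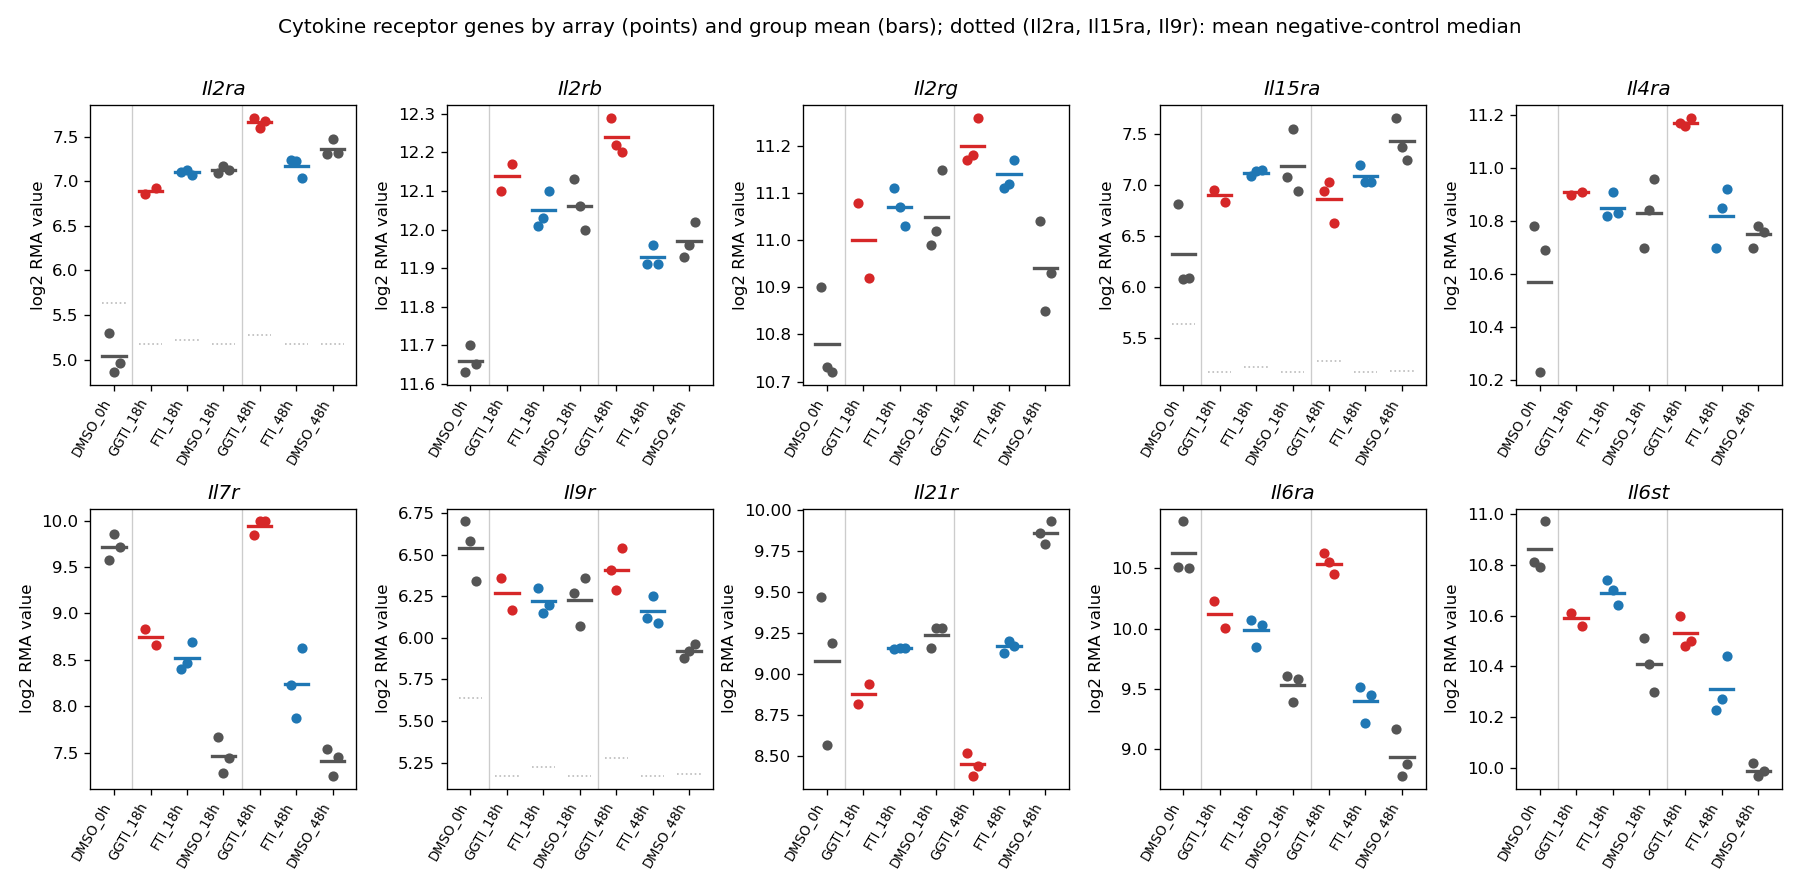
Log2 RMA values of the 10 receptor genes (vertical axes, each on its own scale) on every array (points) with group means (bars), by group and in order of time, with vertical lines between times. GGTI groups are red, FTI groups blue and DMSO groups grey, and dotted lines mark the negative-control median for the genes whose values come near it. Il7r, Il6ra and Il6st are low in DMSO_48h and higher in GGTI_48h, and Il21r is high in DMSO_48h and lower in GGTI_48h.

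The DMSO groups show how the receptors changed in stimulated culture without an inhibitor. At 18 h the IL-2 and IL-15 receptor chains rose, and Il7r, Il6ra, Il6st and Il9r fell. At 18 h 9 of the 10 genes passed limma's test (5 higher, 4 lower; adjusted p under 0.05), where 60.9% of all genes tested did (33.7% higher, 27.2% lower). At 48 h 8 passed (4 higher, 4 lower), where 74.7% of all genes did (38.5% higher, 36.2% lower). The median log2 fold change of the 10 genes was 0.21 at 18 h and 0.17 at 48 h, against 0 and -0.02 for all genes. In bulk samples, fewer cells of a type and less RNA per cell cannot be told apart.

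Il2ra, whose product gives the IL-2 receptor its high affinity, read 5.30, 4.86 and 4.96 in DMSO_0h, 7.09, 7.17 and 7.13 in DMSO_18h and 7.30, 7.47 and 7.31 in DMSO_48h. No stimulated array came near the DMSO_0h arrays, whose values lay under the negative controls and limit what size can be given for this rise. Il2ra passed the filter only through its stimulated arrays, where it was high, so its calls over DMSO_0h are not independent of the filter. Il15ra read 6.82, 6.08 and 6.09 in DMSO_0h, 7.08, 7.55 and 6.94 in DMSO_18h and 7.66, 7.37 and 7.25 in DMSO_48h. It rose by log2 0.86 ± 0.18 (SE) at 18 h (adjusted p = 0.000349) and by 1.1 ± 0.18 at 48 h (adjusted p = 2.08e-05), with no overlap between the groups. Il15ra is dim as well, with a DMSO_0h mean of 6.33 where the negative-control median was 5.64. That median was 5.17 in DMSO_18h and 5.18 in DMSO_48h. The part of the background in the size of the Il15ra rise was not tested. Il2rb, the signalling chain shared by IL-2 and IL-15, was bright throughout, at 11.63, 11.70 and 11.65 in DMSO_0h, 12.13, 12.06 and 12.00 in DMSO_18h and 11.93, 11.96 and 12.02 in DMSO_48h. Its rise was small but larger than the spread, at log2 0.40 ± 0.062 at 18 h (adjusted p = 1.78e-05) and 0.31 ± 0.062 at 48 h (adjusted p = 0.000217). Il2rg, the common gamma chain, averaged 11.05 ± 0.08 in DMSO_18h and 10.78 ± 0.10 in DMSO_0h (SD, n = 3 each), a rise of log2 0.27 ± 0.075 (adjusted p = 0.00425). This call was lost in a fit on only these groups (adjusted p = 0.0629) and without DMSO_0h replicate 2 and DMSO_18h replicate 3 together (adjusted p = 0.0601). Between DMSO_48h and DMSO_18h, Il2ra differed by log2 0.23 without overlap but did not pass (95% interval 0.03 to 0.43, adjusted p = 0.0747). It passed without DMSO_0h replicate 1 or 2 (log2 0.23 in both, adjusted p = 0.0223 and 0.0464). These arrays lie outside that comparison and enter only the shared estimate of spread. At 48 h Il2rg did not pass (log2 0.15, adjusted p = 0.071), but passed without DMSO_0h replicate 1 (log2 0.21, adjusted p = 0.0226) or without DMSO_48h replicate 2 (log2 0.20, adjusted p = 0.0414).

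Il7r, the IL-7 receptor chain, had the largest fall among the 10 genes. It read 9.58, 9.86 and 9.72 in DMSO_0h, 7.67, 7.28 and 7.44 in DMSO_18h and 7.54, 7.25 and 7.45 in DMSO_48h. The 6 stimulated arrays all lay far under the DMSO_0h arrays, and the DMSO_48h and DMSO_18h arrays overlapped. The log2 fold change was -2.25 ± 0.15 at 18 h (adjusted p = 2.73e-10) and -2.31 ± 0.15 at 48 h (adjusted p = 1.14e-10), or 0.21 and 0.202 times the DMSO_0h level. Between the later and the earlier time the difference was -0.05, with a 95% interval of -0.37 to 0.26 (adjusted p = 0.812).

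Il6ra, the IL-6-binding chain, read 10.51, 10.89 and 10.50 in DMSO_0h, 9.61, 9.39 and 9.58 in DMSO_18h and 9.17, 8.78 and 8.88 in DMSO_48h. The times did not overlap, and Il6ra was lower at each later time. It changed by log2 -1.11 ± 0.12 at 18 h (adjusted p = 2.58e-07) and -1.69 ± 0.12 at 48 h (adjusted p = 5.72e-10), and by -0.58 in DMSO_48h relative to DMSO_18h (adjusted p = 0.0019). Il6st, the gp130 chain, followed the same course at a smaller size. Its arrays read 10.81, 10.79 and 10.97 in DMSO_0h, 10.51, 10.41 and 10.30 in DMSO_18h and 10.02, 9.97 and 9.99 in DMSO_48h. The log2 fold change was -0.45 ± 0.076 at 18 h (adjusted p = 4.66e-05), -0.86 ± 0.076 at 48 h (adjusted p = 9.29e-09) and -0.41 ± 0.076 between the later and the earlier time (adjusted p = 0.000647).

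Among the chains for IL-21, IL-9 and IL-4, Il21r was higher and Il9r lower at 48 h. Il21r read 9.47, 8.57 and 9.19 in DMSO_0h, 9.16, 9.28 and 9.28 in DMSO_18h and 9.86, 9.79 and 9.93 in DMSO_48h. Relative to DMSO_18h it rose in DMSO_48h by log2 0.62 ± 0.14 (adjusted p = 0.00328), where 4 of the 10 passed (1 higher, 3 lower) and 29.1% of all genes did (16.4% higher, 12.6% lower). Relative to DMSO_0h it rose by 0.78 ± 0.14 at 48 h (adjusted p = 6.97e-05) and did not pass at 18 h (log2 0.16, adjusted p = 0.337). Without DMSO_0h replicate 1 the 18 h value was 0.36 and passed (adjusted p = 0.0188). Il9r, a dim probe set, read 6.70, 6.58 and 6.34 in DMSO_0h, 6.27, 6.07 and 6.36 in DMSO_18h and 5.88, 5.92 and 5.96 in DMSO_48h. It fell at 48 h, at log2 -0.62 ± 0.10 (adjusted p = 2.09e-05). Its smaller falls to DMSO_18h (log2 -0.31, adjusted p = 0.0129) and between DMSO_48h and DMSO_18h (log2 -0.31, adjusted p = 0.0257) were less firm. The negative-control median was lower after stimulation as well, at 5.64 in DMSO_0h, 5.17 in DMSO_18h and 5.18 in DMSO_48h. Il9r averaged 6.54, 6.23 and 5.92 in these groups. The part of the background in the Il9r falls was not tested. The 18 h call was lost without DMSO_0h replicate 1 or DMSO_18h replicate 2 (log2 -0.22 in both, adjusted p = 0.0766 and 0.0806). The later call was lost without DMSO_18h replicate 1 or 3 or DMSO_48h replicate 1 or 2 (log2 -0.25 to -0.31, adjusted p = 0.068 to 0.104). Il4ra averaged 10.83 ± 0.13 in DMSO_18h and 10.57 ± 0.30 in DMSO_0h (SD, n = 3 each). Its groups overlapped, its call at 18 h (log2 0.26, adjusted p = 0.0446) was lost in 15 of 20 fits that left out 1 array, and without DMSO_0h replicate 2 the value was 0.09. At 48 h Il4ra did not pass (log2 0.18, adjusted p = 0.145), though it did without DMSO_0h replicate 1 (log2 0.29, adjusted p = 0.0275).

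**Figure D2:**
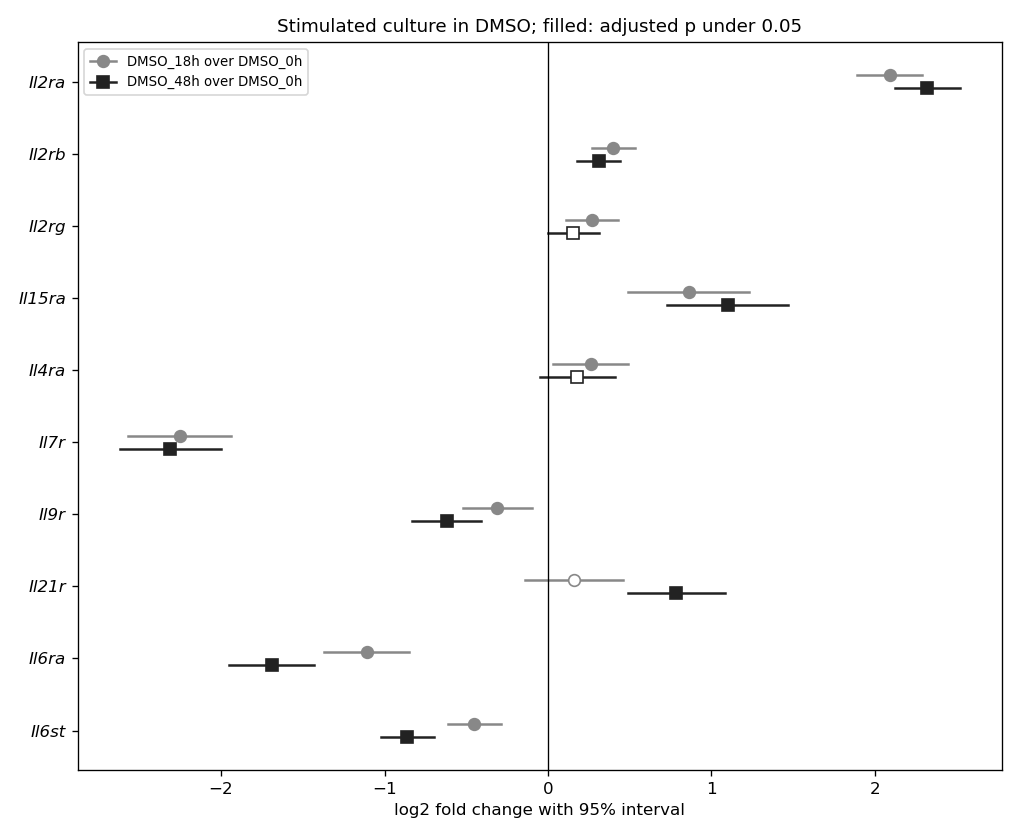
Log2 fold changes (horizontal axis) of the 10 receptor genes (rows) in DMSO_18h (circles) and DMSO_48h (squares) over DMSO_0h, with 95% intervals. Filled symbols passed limma's test. Il7r lies near -2 at both times, the size of the Il2ra rise is limited by its DMSO_0h level under the negative controls, and Il6ra, Il6st and Il9r lie further below 0 at 48 h than at 18 h.

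Both inhibitors were compared with DMSO at the same time. At 18 h Il7r and Il6ra were higher with either inhibitor and Il6st with FTI, and the other receptors did not pass. In FTI_18h 3 of the 10 genes passed, all higher, where 3.30% of all genes did (2.62% higher, 0.682% lower). In GGTI_18h 2 passed, both higher, where 5.94% of all genes did (3.86% higher, 2.08% lower). The median over the 10 genes was 0 in FTI_18h and 0.05 in GGTI_18h, against 0 and -0.01 for all genes.

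Il7r read 8.83 and 8.66 in GGTI_18h, 8.40, 8.47 and 8.69 in FTI_18h and 7.67, 7.28 and 7.44 in DMSO_18h. Every inhibitor array lay above every DMSO_18h array, and below the DMSO_0h arrays. The rise with GGTI was log2 1.28 ± 0.17 (2.43-fold, adjusted p = 0.000165), beside 1.06 ± 0.15 with FTI (adjusted p = 0.00121). Il6ra read 10.23 and 10.01 in GGTI_18h, 10.07, 9.85 and 10.03 in FTI_18h and 9.61, 9.39 and 9.58 in DMSO_18h, again without overlap of either inhibitor with DMSO. It rose by log2 0.60 ± 0.14 with GGTI (adjusted p = 0.0142) and by 0.46 ± 0.12 with FTI (adjusted p = 0.046). The GGTI call was lost without DMSO_18h replicate 2 (log2 0.53, adjusted p = 0.0611) or GGTI_18h replicate 1 (log2 0.49, adjusted p = 0.226). It was also lost in a fit on only these groups (log2 0.60, adjusted p = 0.0756). The FTI call was lost in 12 of 20 fits that left out 1 array, with values of 0.39 to 0.53. Il6st was 10.61 and 10.56 in GGTI_18h, 10.74, 10.70 and 10.64 in FTI_18h and 10.51, 10.41 and 10.30 in DMSO_18h. It passed with FTI (log2 0.29 ± 0.076, adjusted p = 0.0468), a call lost in 15 of 20 fits that left out 1 array, and not with GGTI (log2 0.18, adjusted p = 0.262).

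The chains that bind IL-2, IL-15, IL-4, IL-9 and IL-21 and the shared chains Il2rb and Il2rg did not pass with either inhibitor at 18 h. With FTI their log2 differences from DMSO_18h ran between -0.08 and 0.03. With GGTI the lowest were those of Il21r, at -0.36 (95% interval -0.69 to -0.03, adjusted p = 0.22), and of Il2ra, at -0.24 (-0.46 to -0.02, adjusted p = 0.222). Both Il21r arrays of GGTI_18h, at 8.82 and 8.94, lay below the DMSO_18h arrays, at 9.16, 9.28 and 9.28. The Il21r difference of -0.36 passed without DMSO_0h replicate 2, an array outside this comparison that enters only the shared estimate of spread (adjusted p = 0.0151). GGTI_18h has 2 arrays, so its spread rests mostly on the other groups.

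At 48 h the receptors differed from DMSO in GGTI_48h more than in any other inhibitor group: all 10 genes passed, 8 higher and 2 lower, where 40.3% of all genes did (18.4% higher, 21.9% lower). The median over the 10 was log2 0.36, against -0.01 for all genes. Il7r, Il6ra and Il6st were higher, as were Il9r, Il4ra, Il2ra, Il2rb and Il2rg at smaller sizes, and Il21r and Il15ra were lower. In FTI_48h 4 of the 10 passed, 3 higher and 1 lower, where 7.66% of all genes did (4.58% higher, 3.08% lower).

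Il7r showed the largest difference. It read 9.84, 9.99 and 9.99 in GGTI_48h, 8.23, 7.87 and 8.63 in FTI_48h and 7.54, 7.25 and 7.45 in DMSO_48h. The 3 groups did not overlap, and the GGTI_48h arrays lay within or just above the range of the unstimulated DMSO_0h arrays. The difference from DMSO_48h was log2 2.53 ± 0.15 with GGTI (5.78-fold, adjusted p = 3.01e-10) and 0.83 ± 0.15 with FTI (1.78-fold, adjusted p = 0.00148). GGTI_48h exceeded FTI_48h by 1.70 ± 0.15 (3.25-fold, adjusted p = 1.18e-07).

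The gp130 pair moved the same way. Il6ra read 10.63, 10.55 and 10.45 in GGTI_48h, 9.52, 9.22 and 9.45 in FTI_48h and 9.17, 8.78 and 8.88 in DMSO_48h. The GGTI_48h arrays overlapped the DMSO_0h range and no other group at 48 h. Its rise was log2 1.60 ± 0.12 with GGTI (3.03-fold, adjusted p = 8.73e-09) and 0.45 ± 0.12 with FTI (1.37-fold, adjusted p = 0.0299). The FTI call was lost without DMSO_48h replicate 2 or 3 or FTI_48h replicate 1 or 3 (log2 0.37 to 0.42, adjusted p = 0.0974 to 0.159). It was also lost without a filter on dim probe sets and when centred on either median (log2 0.40 to 0.45, adjusted p = 0.051 to 0.0577). Il6st read 10.60, 10.48 and 10.50 in GGTI_48h, 10.23, 10.27 and 10.44 in FTI_48h and 10.02, 9.97 and 9.99 in DMSO_48h, and all GGTI_48h arrays stayed below the DMSO_0h arrays. It rose by log2 0.53 ± 0.076 with GGTI (adjusted p = 1.76e-05) and by 0.32 ± 0.076 with FTI (adjusted p = 0.0141). The FTI call was lost without DMSO_48h replicate 2 or 3 or FTI_48h replicate 3 (log2 0.26 to 0.31, adjusted p = 0.0518 to 0.0862). Centring on gene probe sets lost it too (log2 0.27, adjusted p = 0.0574).

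Il21r, the IL-21 receptor chain, changed in the other direction. It read 8.52, 8.38 and 8.44 in GGTI_48h, 9.13, 9.20 and 9.17 in FTI_48h and 9.86, 9.79 and 9.93 in DMSO_48h, with tight groups that did not overlap. All GGTI_48h arrays lay below the lowest DMSO_0h array, at 8.57. The difference from DMSO_48h was log2 -1.41 ± 0.14 with GGTI (0.376 times, adjusted p = 2.41e-07) and -0.69 ± 0.14 with FTI (0.618 times, adjusted p = 0.0042), and GGTI_48h was below FTI_48h by -0.72 ± 0.14 (adjusted p = 0.000759). Il15ra was the other gene that fell with GGTI. It read 6.94, 7.03 and 6.63 in GGTI_48h, 7.20, 7.03 and 7.03 in FTI_48h and 7.66, 7.37 and 7.25 in DMSO_48h. Its difference with GGTI was log2 -0.56 ± 0.18 (adjusted p = 0.0164), a call lost without DMSO_48h replicate 1 (log2 -0.45, adjusted p = 0.0833) or GGTI_48h replicate 3 (log2 -0.44, adjusted p = 0.0879). With FTI it did not pass (log2 -0.34, adjusted p = 0.272).

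The IL-2 receptor chains rose with GGTI by small amounts, for Il2ra and Il2rb on top of their rise in culture. At 48 h Il2rg had not passed in DMSO over DMSO_0h (log2 0.15, adjusted p = 0.071). Il2ra read 7.71, 7.60 and 7.67 in GGTI_48h, 7.24, 7.22 and 7.04 in FTI_48h and 7.30, 7.47 and 7.31 in DMSO_48h. GGTI_48h lay above both other groups, at log2 0.30 ± 0.094 over DMSO_48h (adjusted p = 0.0169) and 0.49 ± 0.094 over FTI_48h (adjusted p = 0.000626). The first of these calls was lost without DMSO_48h replicate 1 or 3 or GGTI_48h replicate 1 (log2 0.27 in each, adjusted p = 0.0598 to 0.0609). Il2rb read 12.29, 12.22 and 12.20 in GGTI_48h, 11.91, 11.96 and 11.91 in FTI_48h and 11.93, 11.96 and 12.02 in DMSO_48h. It rose by log2 0.26 ± 0.062 over DMSO_48h (adjusted p = 0.00222) and by 0.31 ± 0.062 over FTI_48h (adjusted p = 0.00102), and FTI_48h overlapped DMSO_48h. Il2rg read 11.17, 11.18 and 11.26 in GGTI_48h, 11.11, 11.12 and 11.17 in FTI_48h and 11.04, 10.85 and 10.93 in DMSO_48h. Its rise of log2 0.26 ± 0.075 with GGTI (adjusted p = 0.00828) was lost without DMSO_48h replicate 2 (log2 0.22, adjusted p = 0.0509). Il2rg was close in both inhibitor groups, with a GGTI_48h over FTI_48h difference of 0.07 (95% interval -0.09 to 0.22), and its FTI value of 0.20 did not pass (adjusted p = 0.12).

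Il4ra and Il9r were also higher with GGTI. Il4ra read 11.17, 11.16 and 11.19 in GGTI_48h, 10.70, 10.85 and 10.92 in FTI_48h and 10.70, 10.78 and 10.76 in DMSO_48h, which places GGTI_48h above every other array of the study. Its rise over DMSO_48h was log2 0.43 ± 0.11 (adjusted p = 0.00409). That over FTI_48h, 0.35 (adjusted p = 0.0214), was lost without FTI_48h replicate 1 or GGTI_48h replicate 1 or 3 (log2 0.29 to 0.35, adjusted p = 0.0543 to 0.0983). Il9r read 6.41, 6.29 and 6.54 in GGTI_48h, 6.12, 6.25 and 6.09 in FTI_48h and 5.88, 5.92 and 5.96 in DMSO_48h. It rose by log2 0.49 ± 0.10 with GGTI (adjusted p = 0.000612) and did not pass with FTI (log2 0.23, adjusted p = 0.173).

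**Figure D3:**
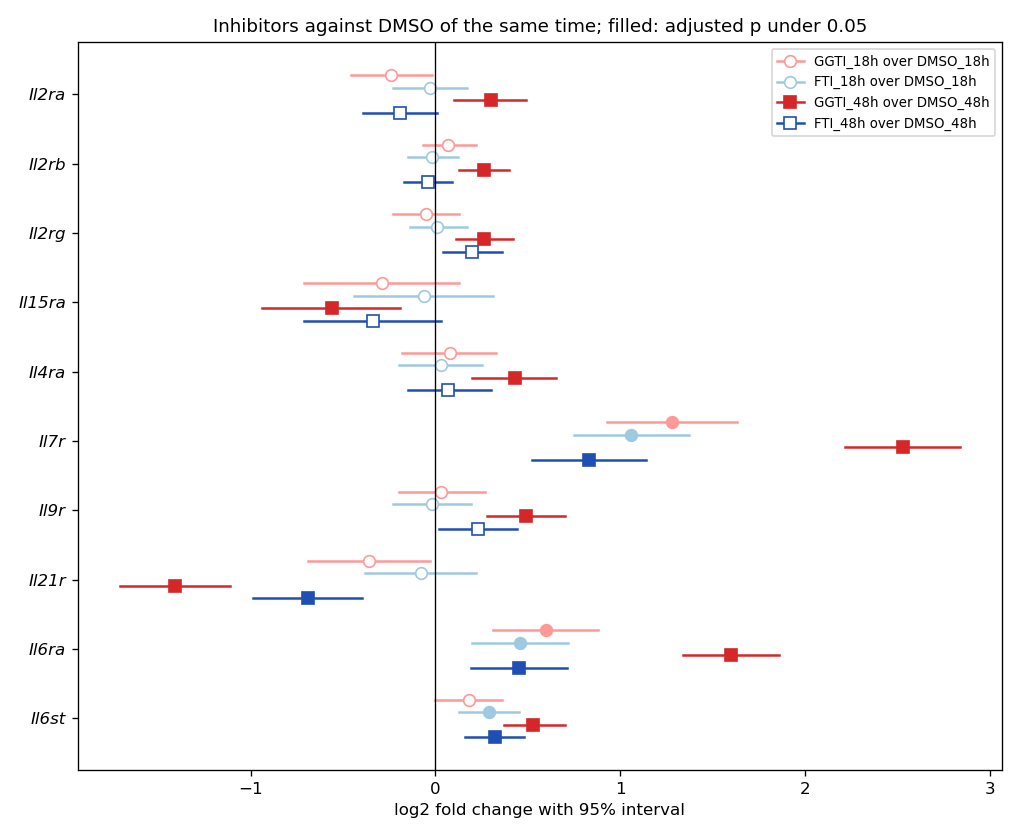
Log2 fold changes (horizontal axis) of the 10 receptor genes (rows) for GGTI (red) and FTI (blue) over DMSO at 18 h (pale circles) and 48 h (dark squares), with 95% intervals. Filled symbols passed limma's test. The GGTI_48h squares lie at 2.53 for Il7r, 1.60 for Il6ra and -1.41 for Il21r, further from 0 than any other symbol of the same gene.

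Tested directly against each other, GGTI and FTI did not separate any of the 10 genes at 18 h, where 2.29% of all genes passed (1.36% higher, 0.923% lower): 0 of the 10 passed after adjustment and 0 had an unadjusted p under 0.05. The interval of the GGTI_18h over FTI_18h difference was -0.13 to 0.57 for Il7r, -0.15 to 0.42 for Il6ra and -0.61 to 0.05 for Il21r. At 48 h 7 of the 10 passed (6 higher, 1 lower in GGTI_48h), where 27.5% of all genes did (13.6% higher, 13.9% lower). Besides the genes above these were Il6ra, higher in GGTI_48h by 1.15 ± 0.12 (2.22-fold, adjusted p = 1.19e-06), and Il6st, higher by 0.22 (adjusted p = 0.0421), a call lost in 9 of 20 fits that left out 1 array.

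The change of each inhibitor's effect with time was tested as an interaction. For GGTI 4 of the 10 genes passed (3 higher, 1 lower), where 9.51% of all genes did (4.97% higher, 4.54% lower). Il7r, Il6ra and Il2ra had larger log2 differences from DMSO at 48 h than at 18 h, by 1.25 ± 0.22 (adjusted p = 0.00123), 1.00 ± 0.18 (adjusted p = 0.00153) and 0.54 ± 0.14 (adjusted p = 0.0203). Il21r had a lower one, by -1.05 ± 0.21 (adjusted p = 0.00328). The Il2ra call was lost without GGTI_18h replicate 1 (log2 0.50, adjusted p = 0.083) or replicate 2 (log2 0.57, adjusted p = 0.0564). For Il9r (log2 0.46, adjusted p = 0.0633) and Il6st (log2 0.35, adjusted p = 0.0626) the interaction did not pass. Il9r passed without DMSO_0h replicate 1 or 3 or DMSO_18h replicate 2 (log2 0.46 to 0.54, adjusted p = 0.029 to 0.0455), and Il6st without DMSO_18h replicate 3 (log2 0.40, adjusted p = 0.0341). The DMSO_0h arrays lie outside the interaction and enter only the shared estimate of spread. For FTI 0 of the 10 passed limma's test after adjustment and 1, Il21r, had an unadjusted p under 0.05, where 0.433% of all genes passed. Il21r stood at -0.61 (95% interval -1.03 to -0.20, adjusted p = 0.297). It passed without DMSO_0h replicate 2 (log2 -0.61, adjusted p = 0.0111), again an array outside the comparison.

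The comparisons of DMSO_18h with DMSO_0h and of GGTI_48h with DMSO_48h share no array. All 4 receptor genes that fell in the first, Il7r, Il6ra, Il6st and Il9r, rose in the second, as did 35.1% of the 3392 genes of all those tested that fell in the first. For the dim Il9r the first fall was log2 -0.31, while the negative-control median was 5.17 in DMSO_18h and 5.64 in DMSO_0h. Of the 5 receptor genes that rose in the first, Il2ra, Il2rb, Il2rg and Il4ra rose in the second and Il15ra fell. Of the 4202 genes of all those tested that rose in the first, 9.4% rose and 44.5% fell in the second. Among the 5 receptor genes that rose, Il2ra passed the filter only through its stimulated arrays, so its rise is not independent of the filter. Its DMSO_0h mean of 5.04 lay below the negative-control median of 5.64. The Il4ra call in the first comparison was lost in 15 of 20 fits that left out 1 array, and that of Il2rg in 2 of 9 other settings.

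The order of the 7 group means differed between the receptors. For Il7r it was GGTI_48h (9.94), DMSO_0h (9.72), GGTI_18h (8.74), FTI_18h (8.52), FTI_48h (8.24), DMSO_18h (7.46) and DMSO_48h (7.41). Neighbouring groups in this order overlapped except DMSO_0h with GGTI_18h and FTI_48h with DMSO_18h, so 3 levels stood apart. For Il6ra the order was DMSO_0h (10.63), GGTI_48h (10.54), GGTI_18h (10.12), FTI_18h (9.99), DMSO_18h (9.53), FTI_48h (9.40) and DMSO_48h (8.94). Its overlapping neighbours were DMSO_0h with GGTI_48h, GGTI_18h with FTI_18h, and DMSO_18h with FTI_48h. For Il21r DMSO_48h (9.86) was alone at the top and GGTI_48h (8.45) alone at the bottom, and the 5 groups between them, at 8.88 to 9.24, each overlapped the next. Il2ra was highest in GGTI_48h (7.66), then DMSO_48h (7.36), and lowest in DMSO_0h (5.04). Il2rb and Il4ra were highest in GGTI_48h, at 12.24 and 11.17, without overlap with the next group. Il2rg was also highest there (11.20) but overlapped FTI_48h (11.14). Il6st and Il9r were highest in DMSO_0h, at 10.86 and 6.54, and lowest in DMSO_48h, at 9.99 and 5.92. Il15ra was highest in DMSO_48h (7.43) and lowest in DMSO_0h (6.33).

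Among all genes tested, those whose 7 group means were most like a receptor's are given as a description, since 7 means from the same 20 arrays are few and most genes changed in culture. Il7r was most like Erp27 (Pearson r = 0.9972), Tada2b (r = 0.9922) and Vrk3 (r = 0.9902). Il6ra was most like Marchf2 (r = 0.9950), the transcription factor gene Lef1 (r = 0.9943) and Cdc42se2 (r = 0.9934). The values for Il21r were lower, at r = 0.9799 with Stk38l, 0.9730 with Zc3hc1 and 0.9669 with the stress factor gene Atf3. Il2ra was most like Exosc8 (r = 0.9982), and Il6st was most like the myelin basic protein gene Mbp (r = 0.9918). Among the receptors themselves, over the same 7 group means, Il6ra had r = 0.93 with Il7r, 0.94 with Il9r and 0.89 with Il6st. Il21r had r = -0.80 with Il7r and -0.82 with Il6ra.

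The other genes of these pathways were read in 8 lists. Of 15 ligand genes 4 were tested. The other 11 did not pass the filter or had no probe set matched by symbol, and Il2, Il4 and Il15 lay below the negative-control median in every group. Clcf1, a gp130 ligand, fell in DMSO_18h relative to DMSO_0h (log2 -2.13 ± 0.13, adjusted p = 8.31e-11). It averaged 8.37 in GGTI_48h, 7.12 in FTI_48h and 6.68 in DMSO_48h, a rise of log2 1.69 ± 0.13 with GGTI (adjusted p = 8e-09) and 0.44 ± 0.13 with FTI (adjusted p = 0.0438). Lif, another gp130 ligand, fell with GGTI at 48 h (log2 -1.13 ± 0.15, adjusted p = 5.73e-06), and the gp130 ligand Osm rose (log2 0.62 ± 0.14, adjusted p = 0.00212). The list of partner receptors also holds the IL-12 receptor chains. Of its 11 genes 5 were tested, and in GGTI_48h 1 rose and 2 fell, where 40.3% of all genes passed. The 2 that fell were the IL-12 receptor chains Il12rb1 and Il12rb2, at log2 -2.02 ± 0.17 (adjusted p = 2.05e-08) and -1.61 ± 0.15 (adjusted p = 1.31e-07). Il27ra, which pairs with gp130, rose by log2 0.48 ± 0.072 (adjusted p = 2.86e-05). Il12rb1 was higher in DMSO_18h (mean 8.64) than in DMSO_0h (5.70, adjusted p = 3.36e-11), where it lay at the negative-control median of 5.64, so no size is given. It passed the filter through stimulated arrays, where it was high, so this call is not independent of the filter. The same genes passed in FTI_48h, with Il12rb2 at log2 -0.90, Il12rb1 at -0.62 and Il27ra at 0.43.

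Of 12 other cytokine receptors tested, 6 rose and 0 fell in GGTI_48h, with a median of log2 0.22, where 40.3% of all genes passed (18.4% higher, 21.9% lower). Ifngr2, an interferon-gamma receptor chain, rose by log2 1.20 ± 0.070 (adjusted p = 2.83e-10), Il10ra by 1.49 ± 0.10 (adjusted p = 2.86e-09), Ifnar1 by 0.90 ± 0.068 (adjusted p = 7.31e-09) and Il10rb by 0.63 ± 0.070 (adjusted p = 7.75e-07). In FTI_48h 3 rose and 0 fell, where 7.66% of all genes passed, and Ifngr2 was at log2 0.97 ± 0.070 (adjusted p = 8.2e-08).

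The signalling genes downstream of the receptors moved in both directions. Of 11 JAK and STAT genes, 2 rose and 8 fell in DMSO_18h relative to DMSO_0h, where 33.7% of all genes rose and 27.2% fell. Among those that fell were Stat5a and Stat5b, the STAT factors of IL-2 and IL-7 signalling (log2 -1.11 each, adjusted p = 2.51e-08 and 3.42e-10), Jak2 (-1.47) and Stat4 (-1.55). In GGTI_48h 5 rose and 3 fell relative to DMSO_48h, where 18.4% of all genes rose and 21.9% fell. Stat4, the factor of IL-12 signalling, rose by log2 1.14 ± 0.12 (adjusted p = 5.08e-07) and Tyk2 by 0.61 ± 0.088 (adjusted p = 2.14e-05). Stat3, the main factor of gp130 and IL-21 signalling, fell, at log2 -0.55 ± 0.076 (adjusted p = 1.22e-05). Of 15 feedback inhibitors, 5 rose and 5 fell in DMSO_18h relative to DMSO_0h, a share near the 60.9% of all genes, with Socs2 up by log2 3.38 ± 0.072 (adjusted p = 2.86e-16), Ptpn6 by 2.67 ± 0.11 and Socs1 by 1.91 ± 0.14. In GGTI_48h 5 rose and 4 fell relative to DMSO_48h (40.3% of all genes passed): Pias3 rose by log2 1.09 ± 0.12 and Pias1 by 0.66 ± 0.10, Ptpn6 fell (log2 -0.54), and Socs2 rose by 0.36 ± 0.072 (adjusted p = 0.000635).

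Genes that STAT5 or STAT3 can induce were also split. Of 15, 10 rose and 2 fell in DMSO_18h relative to DMSO_0h (60.9% of all genes passed, 33.7% higher), with Ccnd2 (cyclin D2) up by log2 1.58 ± 0.074, Lta by 1.61 ± 0.10 and the survival gene Bcl2l1 by 1.52 ± 0.12, and with Bcl6, a transcriptional repressor, down (log2 -2.50 ± 0.14). In GGTI_48h 6 rose and 3 fell relative to DMSO_48h (40.3% of all genes passed, 18.4% higher): the kinase gene Pim1 rose by log2 0.91 ± 0.083 (adjusted p = 8.11e-08), the survival gene Bcl2 by 0.87 ± 0.10 (adjusted p = 1.42e-06) and Ltb by 0.74 ± 0.085 (adjusted p = 1.37e-06), and Tnfrsf4 (OX40) fell, at -0.41 ± 0.069 (adjusted p = 0.000102).

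Il7r is a known target of FOXO1 in mouse T cells, and a list of FOXO and KLF linked genes of resting T cells was read beside it. Of its 12 genes, 2 rose and 9 fell in DMSO_18h relative to DMSO_0h, with a median of log2 -0.54, where 60.9% of all genes passed (27.2% lower). In GGTI_48h 8 rose and 3 fell relative to DMSO_48h, with a median of log2 0.54, where 40.3% of all genes passed (18.4% higher). In FTI_48h 5 rose and 0 fell, where 7.66% of all genes passed. The 3 that fell with GGTI, named after their values were seen, were Bach2 (log2 -0.66), Gfi1 (-0.30) and Ccr7 (-0.27). S1pr1, a lymph node exit receptor, rose by log2 2.40 ± 0.13 with GGTI (adjusted p = 9.98e-11) and 1.12 ± 0.13 with FTI (adjusted p = 1.56e-05). Klf2, a factor of resting T cells, rose by 2.14 ± 0.14 with GGTI (adjusted p = 7.58e-10) and 0.65 ± 0.14 with FTI (adjusted p = 0.00493). The transcription factor gene Lef1 rose by 0.83 ± 0.075 with GGTI (adjusted p = 6.07e-08). Of the 4 proteases and partners that shed IL6RA or IL2RA, 1 rose in GGTI_48h (Rhbdf2, log2 0.28, adjusted p = 0.0181) and 0 fell, and 0 passed in FTI_48h, where 0 also had an unadjusted p under 0.05.

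**Figure D4:**
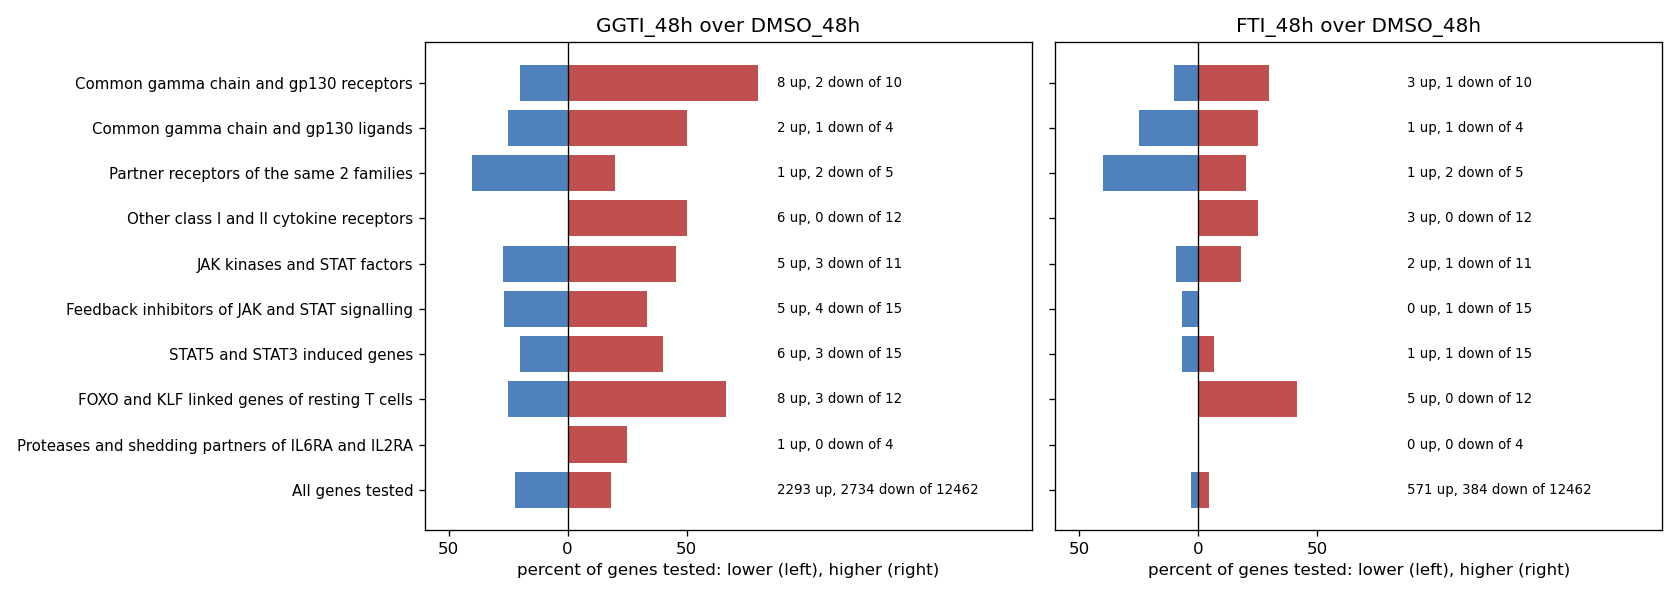
Share of the tested genes of each list (rows) that passed limma's test in GGTI_48h (left panel) and FTI_48h (right panel) over DMSO_48h, higher to the right of 0 and lower to the left, in percent. The bottom row gives all genes tested, and each row prints its counts: the receptors have 8 higher and 2 lower of 10 with GGTI and 3 higher and 1 lower with FTI.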

How the data were processed

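Expression of 20 Treg cell samples was measured on Affymetrix arrays. Between 1 and 20 ng of RNeasy Micro RNA was amplified with NuGEN WTA Pico v2, per the labels' protocols. The authors' RMA normalization ran in Affymetrix Expression Console 1.1, per the submitters' processing notes, and the values were deposited as log2 intensity. RMA sets all arrays to 1 distribution, so changes are relative to the other genes. The deposited tables agreed to within 1.8e-15, and the smallest mean absolute difference between any pair of arrays was 0.123.

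Symbols were updated by accession to RefSeq names. Probe sets had to exceed the array-wide median on 2 or more arrays, and the probe set of highest mean stood for its symbol, which left 12462 genes. No sample column was left unmapped. Tests used limma 3.58.1 in R 4.3.3 on all 20 arrays, fitting 7 group means, moderated variances (13 residual and 4.98 prior degrees of freedom), 2-sided tests and Benjamini-Hochberg adjustment over all genes tested in each of 11 comparisons. "Passed" means an adjusted p under 0.05. Values after ± are standard errors unless named as SD. Genes at or below the negative-control median have a size limited by background. Precision is limited by how few arrays each group has.

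Named are the 10 receptors, label checks such as Foxp3, up to 4 genes of smallest p per list and comparison, and the 3 genes most like a receptor by Pearson r over group means, leaving out unnamed gene models. The members, lists and tests were chosen with earlier results of these data known. The alternatives were a fit on only the groups compared, other filters, centring on either of 2 medians, trend and robust settings, array quality weights, means over probe sets, and leaving out single arrays or DMSO_0h replicate 2 with DMSO_18h replicate 3. Il2rb has no RefSeq promoter entry here, and no protein sequences were used. A few genes of the lists and markers are not reported here.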

Additional observations from a re-analysis of the deposited data

Results flagged for a closer look

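For 4 of the 10 receptor genes the difference between GGTI and DMSO changed with time by limma's interaction test. The log2 difference at 48 h minus that at 18 h was 1.25 for Il7r (adjusted p = 0.00123), 1.00 for Il6ra (adjusted p = 0.00153), 0.54 for Il2ra (adjusted p = 0.0203) and -1.05 for Il21r (adjusted p = 0.00328). For Il2ra the difference was 0.30 at 48 h and -0.24 at 18 h, where it did not pass. GGTI_18h has 2 arrays, and the Il2ra value lost its call without either of them (0.50 and 0.57, adjusted p = 0.083 and 0.0564).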

How the results depend on the processing

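Of 110 results (10 receptor genes in 11 comparisons), 51 passed limma's test, and 36 of these passed under all 9 other settings and all 20 fits without 1 array. Not all of these could move a result. Each receptor gene has 1 probe set, so means over probe sets could not change its values. Leaving out an array outside the groups compared left the log2 difference as it was and changed only the shared estimate of spread. The other 15 lost their call somewhere, 12 of the 59 that did not pass gained one somewhere, and 0 called results changed sign. The number of receptor genes called with FTI_18h was 1 in place of 3 in a fit on only the groups compared, without a filter, with the negative-control filter, centred on all probe sets and with array quality weights. With GGTI_18h it was 1 in place of 2 in a fit on only the groups compared, and with FTI_48h 2 in place of 4 when centred on gene probe sets. The FTI interaction gave 1 in place of 0 in a fit on only its groups, with array quality weights and without DMSO_0h replicate 2 and DMSO_18h replicate 3, and the GGTI interaction 7 in place of 4 with trend and robust settings. The cause was not tested.

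Without 1 array at a time, the counts ran from 7 to 9 for DMSO_18h and 8 to 10 for DMSO_48h over DMSO_0h, 3 to 5 for DMSO_48h over DMSO_18h, 1 to 3 for FTI_18h, 1 to 3 for GGTI_18h, 2 to 4 for FTI_48h and 8 to 10 for GGTI_48h. They ran from 0 to 0 for GGTI_18h over FTI_18h, 5 to 8 for GGTI_48h over FTI_48h, 0 to 1 for the FTI interaction and 3 to 5 for the GGTI interaction. Over all genes and all settings, those without 1 array included, the count called ran from 36 (fit on only the groups compared) to 607 (trend and robust settings) with FTI_18h (411 as reported), 130 to 944 under the same settings with GGTI_18h (740), 521 to 2124 with FTI_48h (955), 69 to 454 for GGTI_18h over FTI_18h (285), 2277 to 3999 for DMSO_48h over DMSO_18h (3623), 28 to 87 for the FTI interaction (54) and 691 to 1579 for the GGTI interaction (1185).

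Centring on all probe sets moved the median of all genes to 0.11 in DMSO_18h and 0.15 in DMSO_48h over DMSO_0h, and the split of higher and lower calls to 4834 and 2518 (4202 and 3392 as reported) and to 5668 and 3034 (4798 and 4513). For DMSO_48h over DMSO_18h it was 2668 and 951, or 2923 and 836 when centred on gene probe sets (2047 and 1576 as reported). For FTI_48h it was 411 and 512, or 386 and 543 (571 and 384), and for the FTI interaction 10 and 39 at the most (20 and 34). Stat6 in DMSO_48h over DMSO_0h, at log2 -0.01, was 0.16 when centred on all probe sets. No paired analysis was possible because the labels give no replicate numbers that tie arrays of different groups.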
